A study of Mus musculus with 16 samples.

Results

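Trps1 and 9 other transcription regulators of the luminal mammary epithelium were followed through silencing of miR-135b in TUBO cells. The genes were Trps1, Gata3, Elf5, Foxa1, Esr1, Ehf, Elf3, Sox9, Cited1 and Stat5a. Every probe that the array's annotation assigns to one of them was taken, which gave 16 of the 25697 probes on the array and 10 of its 16593 named genes. The set was chosen by its values on these arrays: Trps1 for its measured difference between the arms at 48 h and in the mean of 48 and 72 h. Inhibitor differences of the members, and all differences of Trps1 that use those samples, are therefore described below without a p-value. TUBO is a line from a mammary carcinoma of a BALB-neuT mouse, which carries an activated rat ErbB2 (neu) transgene. It is a single line, and all groups share that background.

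All cells were transfected with Lipofectamine and 200 nM of a hairpin inhibitor. One arm received the inhibitor of miR-135b (anti-miR-135b) and the other the negative control hairpin, which the labels call scrambled. Each arm was profiled at 24 h (2 samples), 48 h (3 samples) and 72 h (3 samples), 1 Illumina mouse BeadChip array per sample and 16 in all. The series set out to find transcripts whose level depends on miR-135b. No label says whether replicates came from separate cultures, so the p-values measure only the spread between these samples, which may be technical.

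Luminal cells of the mammary gland line the ducts and form the alveoli that make milk. GATA3 holds them in the luminal state, and FOXA1 opens chromatin for the oestrogen receptor, which Esr1 encodes. TRPS1 is an atypical member of the GATA family that binds GATA sites and represses transcription. ELF5, ELF3 and EHF are epithelial members of the ETS family, and ELF5 acts with STAT5A, the signal transducer of prolactin, in the alveolar programme. SOX9 is linked to luminal progenitors, and CITED1 is a transcriptional cofactor that binds CBP/p300 and the oestrogen receptor.

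Promoters from the RefSeq sequences of GRCm38.p6 (250 bases before to 50 after a start) are shown for 3 members that the results turn on. Elf3 is shown because its brighter probes passed a test of time. Gata3 and Foxa1 are shown because their values moved together over the arrays. Capitals mark the match of a searched motif on either strand, and all 3 genes lie on the minus strand. The promoter table has entries for 7 of the 10 genes, 12 promoters in all. Trps1, Ehf and Sox9 are not among them.
Elf3, chr1:135258423-135258722: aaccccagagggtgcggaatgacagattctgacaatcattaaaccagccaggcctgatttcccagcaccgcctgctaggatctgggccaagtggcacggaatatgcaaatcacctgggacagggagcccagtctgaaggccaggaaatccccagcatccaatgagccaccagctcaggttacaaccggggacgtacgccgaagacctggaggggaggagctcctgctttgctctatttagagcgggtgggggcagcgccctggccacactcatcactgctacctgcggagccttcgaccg
Gata3, chr2:9878551-9878850: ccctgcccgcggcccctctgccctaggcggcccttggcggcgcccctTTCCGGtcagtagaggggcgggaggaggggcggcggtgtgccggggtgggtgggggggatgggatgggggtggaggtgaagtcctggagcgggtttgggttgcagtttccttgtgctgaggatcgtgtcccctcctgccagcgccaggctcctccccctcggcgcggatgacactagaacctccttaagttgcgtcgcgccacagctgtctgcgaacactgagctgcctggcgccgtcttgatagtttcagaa
Foxa1, chr12:57546062-57546361: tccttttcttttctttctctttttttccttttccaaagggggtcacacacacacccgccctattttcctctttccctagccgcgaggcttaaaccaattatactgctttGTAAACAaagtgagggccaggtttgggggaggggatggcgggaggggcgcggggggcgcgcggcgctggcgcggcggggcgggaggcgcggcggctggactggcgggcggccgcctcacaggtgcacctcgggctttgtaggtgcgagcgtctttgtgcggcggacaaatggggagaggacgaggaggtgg

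The motifs searched were GATAA for GATA factors, TGTTTAC for forkhead factors and CCGGAA for ETS factors, on both strands. The Gata3 promoter held 1 ETS match, TTCCGG at bases 48 to 53 from its 5′ end. CCGGAA was found in 14.9% of all 32851 promoters in the table. The Foxa1 promoter held 1 forkhead match, GTAAACA at bases 110 to 116, and TGTTTAC was found in 3.65% of all promoters. GATAA was found in 3 of the 12 member promoters, 1 each of Elf5, Esr1 and Cited1, against 25.4% of all. The Elf3 window held none of the 3 motifs. Only these spellings were searched, so a window without a match can still hold another form of such a site. A match is a description of the sequence only.

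The values below are log2 intensities after background correction and quantile normalization, unless deposited intensities are named. Of the 16 member probes, 13 lay above the filter, a mean log2 value of 7.1 that is the median of all probes. They stand for 8 genes. The dimmest of them were Foxa1 at a mean of 7.34 and the dimmer Stat5a probe at 7.35, and the nearest probe below the filter was one of Esr1 at 6.84. As a gauge of background, each probe was set against the 95th percentile of 1338 odorant, vomeronasal and taste receptor probes on the same array, which ran from 308.3 to 370.4 in deposited intensity. Trps1, Gata3, Sox9, the 3 probes of Elf5 and the brighter 2 of Elf3 lay above it on all 16 arrays. Cited1 did so on 15 arrays, the Stat5a probes on 13 and 6, the third Elf3 probe on 8 and Foxa1 on 8.

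Esr1 and Ehf had no signal above that gauge on most arrays. The deposited intensities of the Esr1 probes ran from 238 to 340.9 and from 220.6 to 308.8, and 1 of them exceeded the gauge on 1 array. Ehf ran from 208.2 to 328.4 and exceeded it on none. Neither gene has a level or a difference that can be read here, and both were left out of the tests. The dark Esr1 probes do not show that the cells lack the receptor, only that these probes stayed near background.

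The label of the cells was checked against markers. Of 7 epithelial markers with a probe, 6 (Cdh1, Krt8, Krt18, Cldn3, Cldn4 and Cldn7) lay above the gauge on all 16 arrays, and Krt19 did so on 0. None of the 8 fibroblast, 4 leukocyte, 4 endothelial, 4 adipocyte and 5 basal markers with a probe did so on all arrays. Some did so on part of them: the basal markers Krt14 and Acta2 on 9 arrays each, Lep on 8, Kdr on 6 and Adipoq on 4. The summed fibroblast markers had group means from 2143 to 2422 in deposited intensity, the leukocyte markers from 1023 to 1195 and the basal markers from 1420 to 1640. The summed epithelial markers were less even before normalization. They measured 28400 in the 24 h controls and 37660 in the 24 h anti-miR-135b samples. At 48 h they measured 67520 in the controls and 41360 under anti-miR-135b, and at 72 h 45170 and 58820. The cause was not tested.

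The arrays lay on 2 chips, and this decides which comparisons can be read. Both 48 h arms and the 24 h controls shared one chip, and both 72 h arms and the 24 h anti-miR-135b samples shared the other. The inhibitor differences at 48 and 72 h, the control change from 24 to 48 h and the anti-miR-135b change from 24 to 72 h therefore lie within a chip. At 24 h chip and arm cannot be told apart, nor can chip and time between 48 and 72 h. Within a chip, controls took positions A to C, anti-miR-135b samples D to F and 24 h samples G and H, so position cannot be told apart from arm or from time. Array medians ran from 281.2 to 346.8 in deposited intensity. Anti-miR-135b sample 13 at 48 h had the lowest upper quartile, 375.8, close to the 376.5 of control sample 3 and the 391.8 of control sample 7, and the highest was 529.4. Sample 13 gave the lowest or highest value of its group for many members, so the 48 h differences are also given without it.

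Trps1 (probe ILMN_2466527) was lower under anti-miR-135b than in the control at 48 h and at 72 h. RNA was measured in bulk, so fewer cells with the transcript and less of it per cell cannot be told apart. In deposited intensity, the 48 h controls 4, 5 and 6 measured 1534.5, 1454.4 and 1684.1. The 48 h anti-miR-135b samples 13, 14 and 15 measured 449.3, 861.5 and 586.6. These groups did not overlap, and even the dimmest anti-miR-135b sample lay above the receptor gauge. Gata3 was apart as well in deposited intensity at 48 h, at 1712.1 to 2016.4 in the controls and 656.5 to 1565.6 under anti-miR-135b. The array upper quartiles were 529.4, 455.7 and 484.7 in these controls and 375.8, 465.6 and 420.3 in these anti-miR-135b samples. How far array brightness enters these deposited gaps was not tested. For Trps1 at 72 h the controls 7, 8 and 9 measured 805.2, 1258 and 1217.2. The anti-miR-135b samples 16, 17 and 18 measured 558.8, 1048.5 and 747.3. Before normalization the 72 h groups thus overlapped, since anti-miR-135b sample 17 lay above control sample 7.

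After normalization the arms no longer overlapped at 72 h. At 48 h Trps1 measured 9.69, 10.09 and 10.11 in the controls and 8.62, 9.23 and 8.94 under anti-miR-135b. The means were 9.97 ± 0.24 and 8.93 ± 0.30 (SD, n = 3 each), a difference of -1.04 (SE 0.24) or 2.05-fold lower. At 72 h it measured 9.82, 10.20 and 10.06 in the controls and 8.84, 9.49 and 9.37 under anti-miR-135b. All 3 anti-miR-135b samples lay below all 3 controls at each of these times. The 72 h means were 10.03 ± 0.19 and 9.23 ± 0.35 (SD, n = 3 each), a difference of -0.79 (SE 0.24) or 1.73-fold lower. The mean of both differences was -0.92 (SE 0.17), 1.89-fold lower. Groups that were lower under anti-miR-135b and apart at both times were found for 73 of the 12848 probes, 0.568%, and Trps1 is one of these. It was chosen for its differences on the same samples, so its place among them is a description only.

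At 24 h the arms lay on different chips, so neither a gap nor its absence can be read as that of the inhibitor. Trps1 measured 10.02 and 10.76 in the 24 h controls and 9.93 and 10.22 under anti-miR-135b. These overlapped, with a difference of -0.32 (SE 0.29). The order of the group means, which mixes both chips, ran from both 24 h groups over both later controls to both later anti-miR-135b groups. Only 1 step of that order, from the 48 h controls to the 72 h anti-miR-135b samples, separated neighbours without overlap. The 72 h difference minus the 48 h difference was 0.24 (SE 0.34). Without sample 13 the 48 h difference was -0.89 and the mean difference -0.84. With arrays scaled to a common median in place of quantiles the 48 h difference was -1.56, but the median of all probes there was -0.27, and Trps1 lay at -1.28 relative to it.

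**Figure D1:**
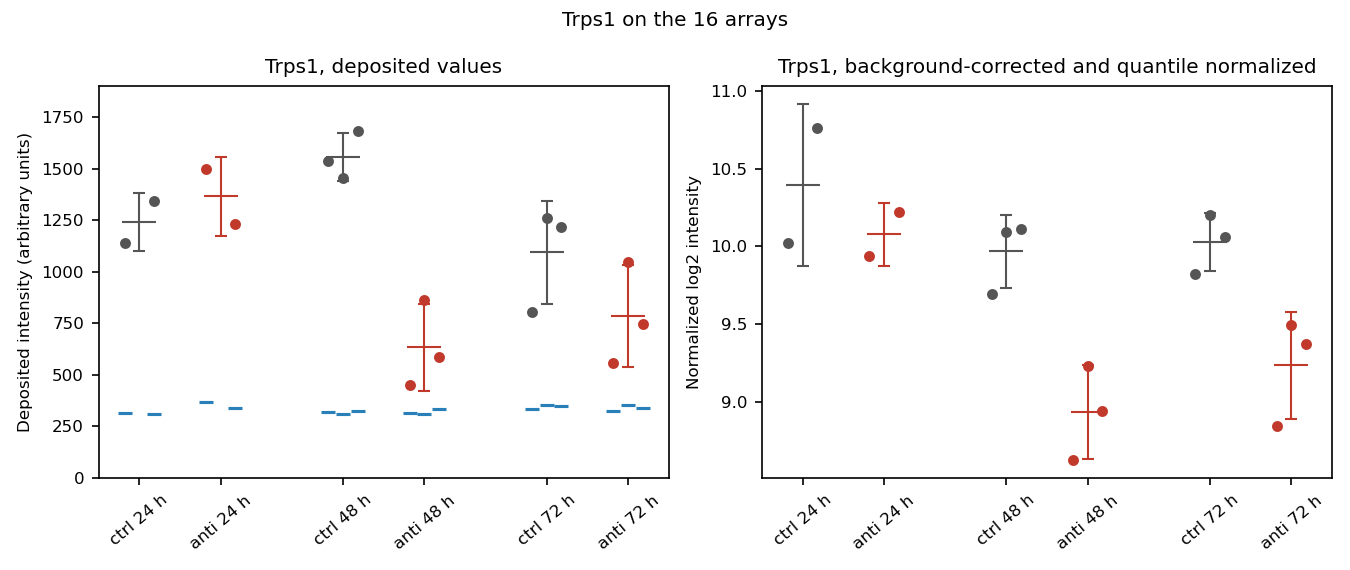
Trps1 on the 16 arrays, as deposited intensity in arbitrary units (left) and as normalized log2 intensity (right), by arm (ctrl is the negative control, anti is anti-miR-135b) and time. Points are samples, long bars are group means with SD, and short blue dashes mark the receptor gauge of each array. At 48 h the arms are apart on both scales, and at 72 h they overlap in deposited intensity only.

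In the fit across all 12848 probes 0% passed for an inhibitor difference at 48 h, at 72 h, in their mean or in the difference between both times (limma, adjusted p threshold of 0.05), and so 0 of the 13 member probes. Since these contrasts chose Trps1, nothing is read from the members' count. At an unadjusted p under 0.05 there were 802 probes at 48 h, 916 at 72 h, 1007 in the mean and 706 in the difference. With the values of the authors' deposited table, 2 probes passed at 72 h, neither of them a member. The member median was 0.02 at 48 h, 0.07 at 72 h and 0.08 in the mean, beside -0.01, -0.01 and -0.00 over all probes. Groups were apart for 2 of 13 member probes at 48 h and 3 of 13 at 72 h, against 10.2% and 15.1% of all probes. Beside Trps1 these were the dimmer Stat5a probe at 48 h, and the second Elf3 probe and the dimmest Elf5 probe at 72 h.

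**Figure D2:**
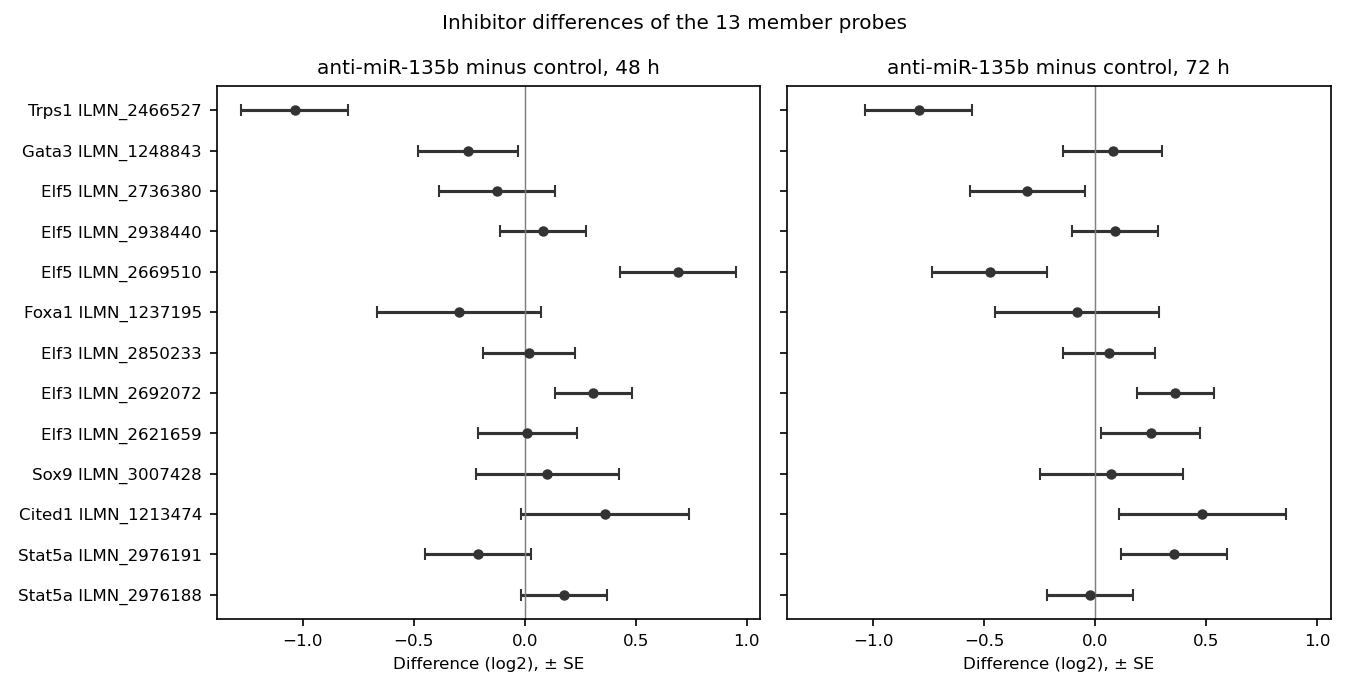
Inhibitor differences (anti-miR-135b minus control, log2) of the 13 member probes above the filter at 48 h (left) and 72 h (right). Points are differences and bars are ± SE from the model of 6 groups. Trps1 lies at -1.04 and -0.79, and the other probes lie between -0.48 and 0.69.

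After normalization the arms overlapped for Gata3 and Foxa1 at both times. Gata3 measured 9.87, 10.36 and 10.38 in the 48 h controls and 9.48, 10.21 and 10.16 under anti-miR-135b, a difference of -0.25 (SE 0.22). Without sample 13, its lowest array, the difference was -0.02. At 72 h Gata3 measured 10.06, 10.03 and 10.15 in the controls and 9.83, 10.29 and 10.37 under anti-miR-135b, a difference of 0.08 (SE 0.22). The highest Gata3 values of all arrays were those of the 24 h anti-miR-135b samples, 10.81 and 10.72, against 9.97 and 10.27 in the 24 h controls, where chip and arm cannot be told apart.

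Foxa1 was dim, from 216.4 to 491.9 in deposited intensity. At 48 h it measured 6.86, 7.24 and 7.79 in the controls and 6.11, 7.44 and 7.45 under anti-miR-135b. The low value is again that of sample 13, and the difference of -0.30 (SE 0.37) became 0.15 without it. At 72 h it measured 7.03, 7.11 and 7.28 in the controls and 6.13, 7.44 and 7.60 under anti-miR-135b, a difference of -0.08 (SE 0.37). In the anti-miR-135b groups of 48 and 72 h, 1 sample each thus lay below all controls of its time. The other pair lay among the controls at 48 h and above them at 72 h. Without the low sample 16 the 72 h difference was 0.38. Sample 13 was the lowest of all 16 arrays for 5 of the 13 member probes (Trps1, Gata3, Foxa1 and 2 of Elf5), beside 8.3% of all probes. What part that array has in those values was not tested.

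The ETS factors Elf5 and Elf3 each had 3 probes above the filter, whose differences varied from probe to probe. The brightest Elf5 probe measured 10.63, 11.35 and 11.48 in the 48 h controls and 10.41, 11.26 and 11.42 under anti-miR-135b, a difference of -0.12 (SE 0.26) that became 0.19 without sample 13. At 72 h it measured 11.32, 11.09 and 11.27 in the controls and 11.16, 10.72 and 10.90 under anti-miR-135b, a difference of -0.30 (SE 0.26). The second Elf5 probe differed by 0.08, or 0.26 without sample 13, and by 0.09 at 72 h (SE 0.19 each). These probes overlapped between the arms at both times. The dimmest Elf5 probe differed by 0.69 (SE 0.26) at 48 h, or 0.98 without sample 13, where the groups overlapped, and by -0.48 (SE 0.26) at 72 h, where they were apart. The gap between its differences was -1.17 (SE 0.37). That gap was -0.18 on the brightest Elf5 probe and 0.01 on the second.

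Elf3 differed little between the arms on its brightest probe, by 0.02 at 48 h and 0.06 at 72 h (SE 0.21 each). Its second probe differed by 0.31 at 48 h and 0.36 at 72 h (SE 0.17 each). At 72 h that probe measured 8.59, 8.49 and 8.52 in the controls and 9.09, 8.76 and 8.83 under anti-miR-135b, with no overlap. The third probe, near background, differed by 0.01 and 0.25 (SE 0.22 each). Without sample 13 the 48 h differences of the 3 probes were -0.17, 0.21 and -0.15, so that 2 of them turned sign.

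Among the remaining members, Cited1 spread widely within groups. It measured 8.18, 7.55 and 7.57 in the 48 h controls and 8.96, 7.61 and 7.82 under anti-miR-135b. The high value is that of sample 13, and the difference of 0.36 (SE 0.38) became -0.05 without it. At 72 h it measured 8.50, 7.94 and 7.38 in the controls and 9.30, 8.18 and 7.79 under anti-miR-135b, a difference of 0.48 (SE 0.38) that became 0.047 without sample 16. The arms overlapped at both times. Sox9 differed by 0.10 at 48 h, or -0.19 without sample 13, and by 0.07 at 72 h, or -0.27 without sample 17 (SE 0.32 each). Its 72 h anti-miR-135b samples alone ran from 7.75 to 9.09. The brighter Stat5a probe differed by -0.21 at 48 h and 0.35 at 72 h (SE 0.24 each), and the dimmer one by 0.18 and -0.02 (SE 0.19 each). Without sample 13 their 48 h differences were -0.058 and 0.21. The dimmer Stat5a probe was apart at 48 h by a small margin, 7.29 to 7.46 against 7.07 to 7.28 in the controls.

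**Figure D3:**
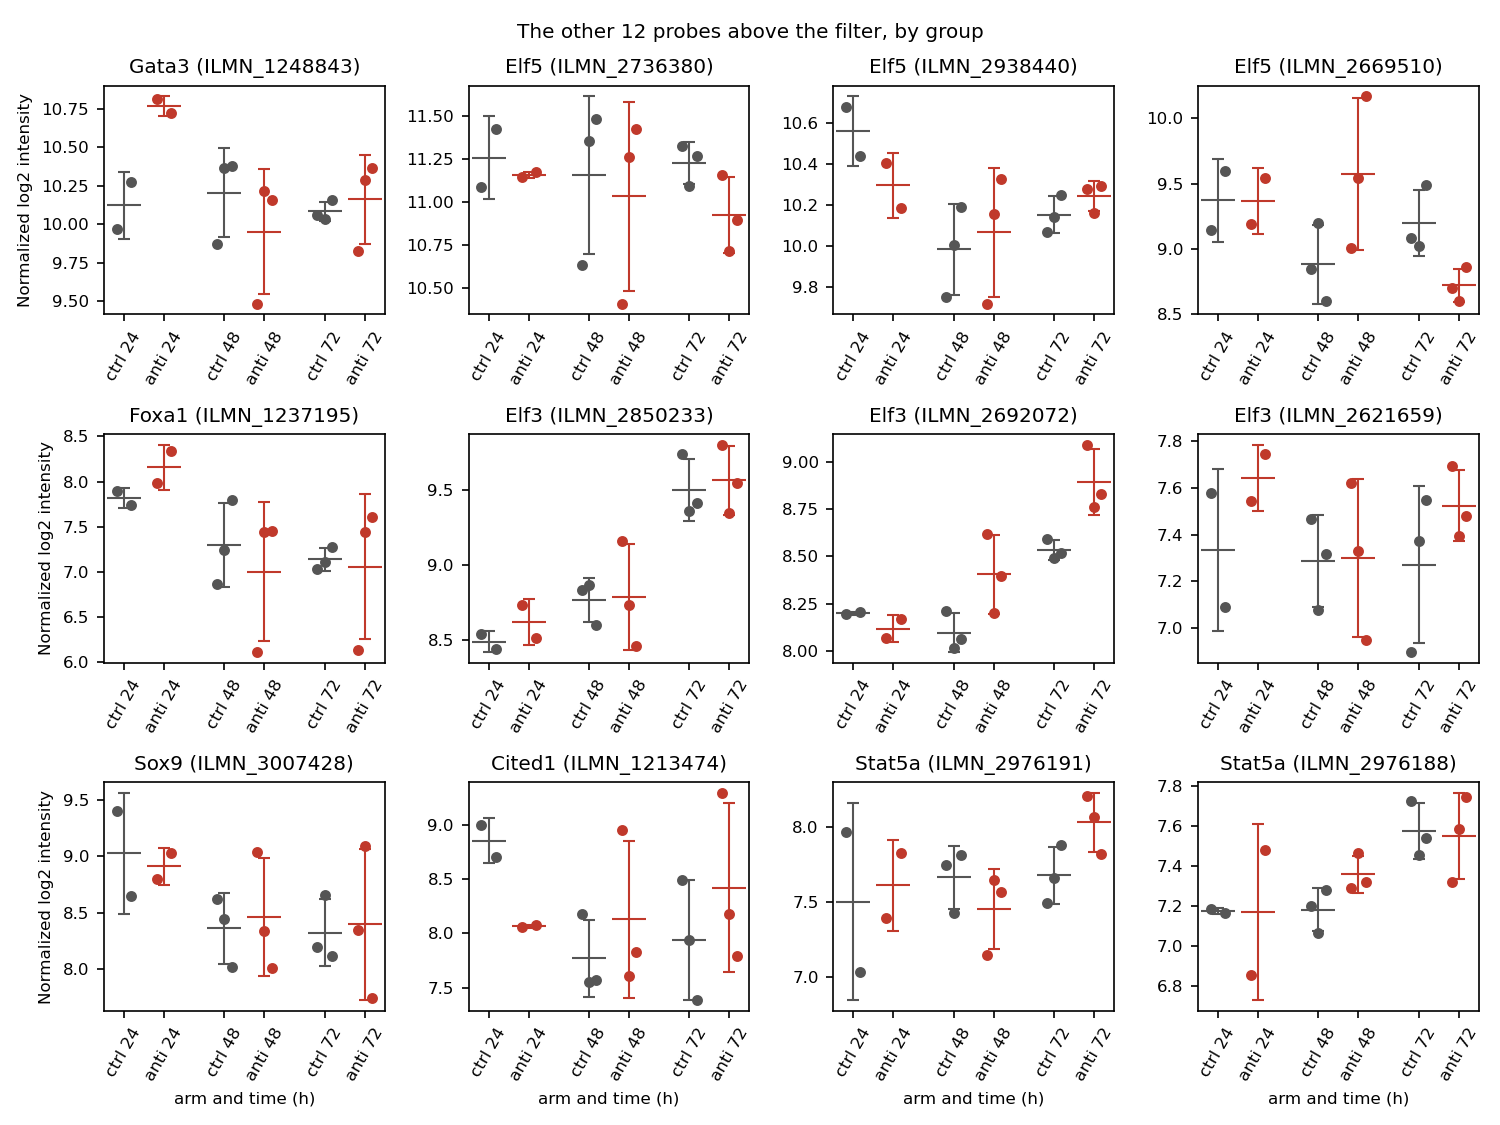
Normalized log2 intensity of the other 12 member probes above the filter, by arm (ctrl is the negative control, anti is anti-miR-135b) and time in h. Points are samples and bars are group means with SD, on axes that differ between panels. The brighter 2 Elf3 probes are highest at 72 h in both arms, and Gata3 and Foxa1 share a low 48 h anti-miR-135b array, sample 13.

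The changes with time within a chip were tested for the genes other than Trps1. These changes share samples with the inhibitor differences above, and Trps1, chosen through some of these samples, is counted among the 13 probes but given no p-value. The members were chosen with earlier results of these data known, so their counts beside all probes are descriptions. From 24 to 48 h in the control arm 0 of 13 member probes passed, where 0.926% of all 12848 probes did (119, limma). At an unadjusted p under 0.05 there were 1593 probes. Cited1 measured 9.00 and 8.71 at 24 h and 8.18, 7.55 and 7.57 at 48 h, a difference of -1.09 (SE 0.42, adjusted p = 0.277). The second Elf5 probe measured 10.68 and 10.44 at 24 h and 9.75, 10.01 and 10.19 at 48 h, a difference of -0.58 (SE 0.22, adjusted p = 0.26). Their groups were apart, as those of 4 of 13 member probes and 28.8% of all probes were, but neither difference passed. Trps1 differed by -0.43 (SE 0.27), with 2 of its 48 h values above the lower 24 h value. That sign depends on the scaling, since with arrays scaled to a common median Trps1 differed by 0.28 while the median of all probes shifted by 0.32.

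From 24 to 72 h under anti-miR-135b, Elf3 rose on its brighter 2 probes. The brightest (ILMN_2850233) measured 8.73 and 8.51 at 24 h and 9.81, 9.35 and 9.55 at 72 h, a rise of 0.95 (SE 0.23, 1.93-fold, limma adjusted p = 0.018). The second (ILMN_2692072) measured 8.07 and 8.17 at 24 h and 9.09, 8.76 and 8.83 at 72 h, a rise of 0.78 (SE 0.19, 1.71-fold, adjusted p = 0.0198). All 3 samples at 72 h lay above both at 24 h on each of these probes. The third, dim Elf3 probe (ILMN_2621659) differed by -0.12 (SE 0.25, adjusted p = 0.829). These were the only member probes that passed, 2 of 13 (1 of 8 genes), where 7.98% of all probes passed (1025 of 12848), 4.2% higher and 3.77% lower.

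The Elf3 calls rest on few samples. Both were lost without sample 11 (adjusted p = 0.0604 and 0.121), without sample 12 (0.243 and 0.162) and without sample 16 (0.0725 and 0.081), though both rises stayed between 0.68 and 1.05. The count of all probes called also dropped to 475, 23 and 447 without these samples. With median scaling the rises were 0.85 and 0.68 and did not pass (adjusted p = 0.0641 and 0.0728). In the control arm, Elf3 at 72 h lay above 24 h by 1.02 and 0.34 on the same probes and above 48 h by 0.74 and 0.44, where chip and time cannot be told apart.

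Trps1 and Foxa1 lay lower at 72 h than at 24 h under anti-miR-135b. Trps1 differed by -0.84 (SE 0.27), with all 3 samples at 72 h below both at 24 h. Its 72 h samples took part in its choice, so no test is given. Foxa1 measured 7.98 and 8.34 at 24 h and 6.13, 7.44 and 7.60 at 72 h, a difference of -1.10 (SE 0.41, adjusted p = 0.11) that did not pass. It passed with array weights at -0.93 (0.0438), in a fit that stopped before its tolerance. With 1 sample left out the Foxa1 difference ran from -1.38 without sample 18 to -0.64 without sample 16. Foxa1 in sample 16 measured 223.6 in deposited intensity, below the receptor gauge of that array. Gata3 differed by -0.61 (SE 0.25, adjusted p = 0.148) and the dimmest Elf5 probe by -0.65 (SE 0.29, adjusted p = 0.187). The brighter Elf5 probes differed by -0.23 and -0.05 (adjusted p = 0.697 and 0.918). Sox9, Cited1 and the Stat5a probes differed by -0.51 to 0.42 (adjusted p from 0.308 to 0.679). The 24 h and 72 h groups were apart for 6 of 13 member probes in this arm, against 44.1% of all probes. The member median was -0.12, beside 0.01 over all probes.

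**Figure D4:**
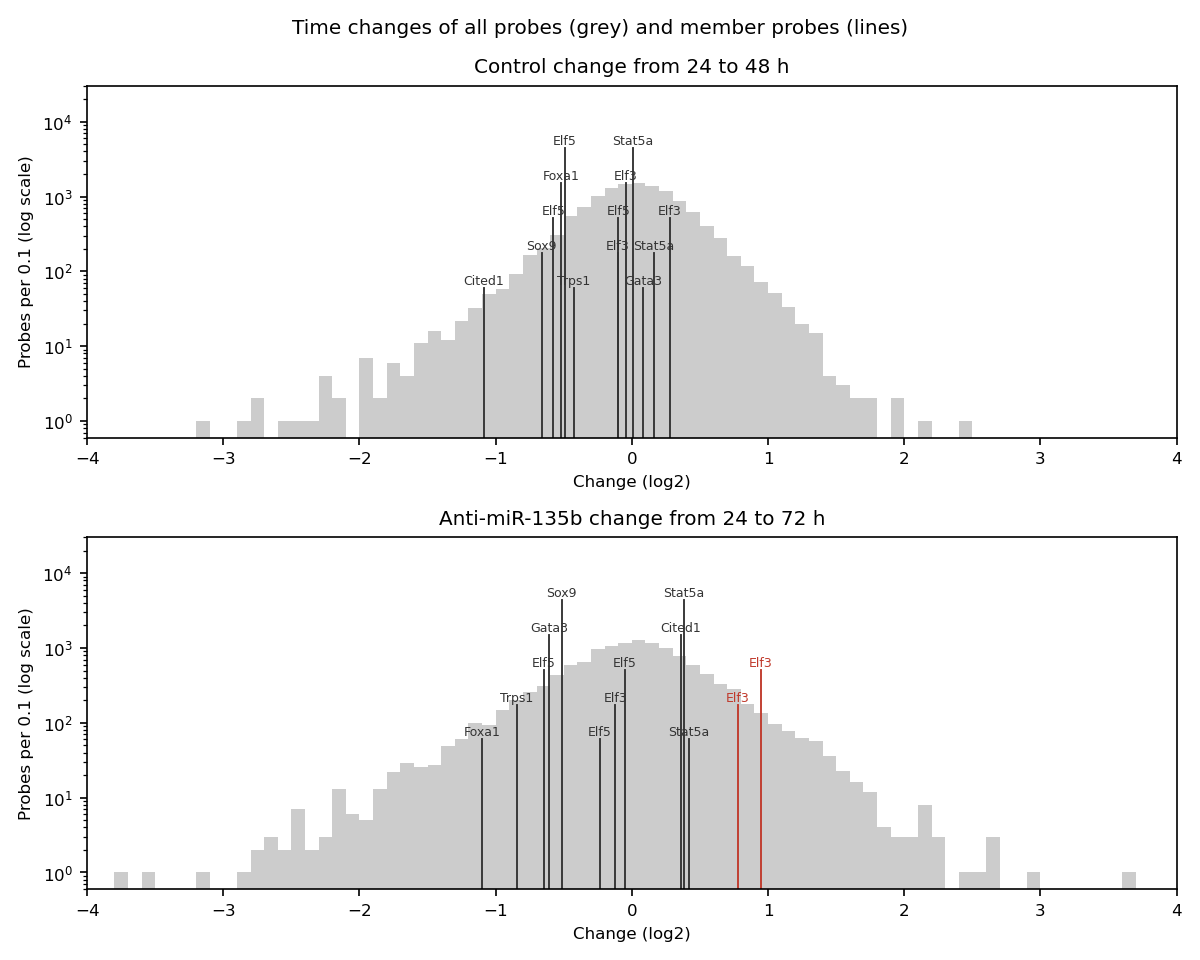
Changes from 24 to 48 h in the control (top) and from 24 to 72 h under anti-miR-135b (bottom). Grey bars count all 12848 probes per 0.1 of log2 change on a log scale, and lines mark the 13 member probes, their heights staggered for the names only. The brighter 2 Elf3 probes, in red, passed the test at 0.95 and 0.78.

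Over the 16 arrays the values of Gata3 and Foxa1 ran together most closely among the 28 pairs of member genes (brightest probes, Pearson's r = 0.84, Spearman's rho = 0.76). The correlation was 0.77 without sample 13, and 0.78 and 0.94 over the 8 arrays of each chip. Foxa1 and Elf3 ran most oppositely, with r of -0.62 over all arrays and -0.90 and -0.87 within the chips. Trps1 had r of 0.63 with Foxa1 and 0.52 with Gata3, which became 0.50 and 0.33 without sample 13. Foxa1 lay above the receptor gauge on only 8 of the 16 arrays, which limits each of its correlations. The median over the 28 pairs was -0.03, and 13 were positive. These are descriptions of 16 arrays that share groups and chips.

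The 5 genes whose values were most like those of Trps1 over the 16 arrays were Rbm39, a splicing factor (r = 0.94), Nfatc3, a calcineurin-dependent transcription factor (0.88), Rasa1, a Ras GTPase-activating protein (0.88), Bcl10, an adaptor of NF-κB signalling (0.86), and Rabep1, an effector of the endosomal Rab5 (0.85). Within the chips their r ran from 0.78 to 0.99. Rasa1 differed between the arms by -0.99 at 48 h and -0.87 at 72 h (SE 0.27 each), and Rbm39 by -0.81 and -0.79 (SE 0.22 each). Nfatc3, Bcl10 and Rabep1 differed by -0.14 to -0.58 at 48 h and by -0.19 to -0.52 at 72 h. These genes were picked for likeness to Trps1, so their differences are no separate evidence. Most like the brightest Elf3 probe were Paxx, a factor of DNA end joining, Mxi1, a MYC antagonist, and Adssl1, an enzyme of AMP synthesis (r = 0.96 each).

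The surrounding genes were read from lists, each gene by its brightest probe. The lists were chosen with earlier results of these data known, so their counts beside all named genes are descriptions. Of 28 luminal genes and other luminal factors, 22 lay above the filter. From 24 to 72 h under anti-miR-135b 4 rose and 1 fell, 5 of 22, where 8.37% of 9032 named genes passed. Krt18 and Krt8, the keratins of luminal cells, rose by 1.33 (SE 0.23, adjusted p = 0.00285) and 0.98 (SE 0.19, adjusted p = 0.00571). Muc1, an apical mucin, rose by 1.24 (SE 0.34, adjusted p = 0.0301). Klf5, an epithelial Krüppel-like factor, fell by 1.46 (SE 0.43, adjusted p = 0.0437). The fourth that rose was Id2, an inhibitor of helix-loop-helix factors, by 0.79 (SE 0.22, adjusted p = 0.0318), which was named after its values were seen. The list median was 0.11, beside 0.03 over all genes.

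Here too the samples decide the count, which was 2 without sample 11, 0 without sample 12, 3 without sample 16 or 18, and 2 with median scaling. Krt18 and Krt8 kept their calls in each of these but the one without sample 12, where the adjusted p was 0.0726 and 0.13. The other calls were lost more often. The Klf5 call was lost with no background correction (adjusted p = 0.0576), offset 16 (0.0501), median scaling (0.081), the authors' deposited table (0.0585) and without sample 11, 12, 16 or 17 (0.09 to 0.338). Muc1 did not pass with median scaling or without sample 11, 12, 17 or 18, nor Id2 with median scaling, with no filter or without sample 11, 12, 16 or 18. From 24 to 48 h in the control 0 of the 22 passed, where 1.01% of named genes did, and Krt18 and Krt8 differed by 0.80 and 0.55 (adjusted p = 0.119 and 0.214). For the mean inhibitor difference 0 of 22 passed, beside 0% of named genes. The smallest p-values there were those of Grhl2, a grainyhead factor of epithelia, at -0.60 (SE 0.19, adjusted p = 0.434) and Id2 at -0.40 (SE 0.14, adjusted p = 0.479).

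Of 18 milk and alveolar genes downstream of Elf5 and Stat5, 9 lay above the filter. From 24 to 72 h under anti-miR-135b 2 of these 9 passed, where 8.37% of named genes did. Cish rose by 1.27 (SE 0.34, adjusted p = 0.0284) and Socs2 fell by 1.91 (SE 0.38, adjusted p = 0.00613). Both encode feedback inhibitors of cytokine signalling that STAT5 is known to induce, and they moved in opposite directions. Neither passed without sample 12 (adjusted p = 0.337 and 0.128) or with median scaling (0.126 and 0.0764), and Cish also did not pass without sample 11, 17 or 18. In the mean inhibitor difference Socs2 differed by -0.71 (SE 0.24, adjusted p = 0.484). From 24 to 48 h in the control 0 of the 9 passed, where 1.01% of named genes did. Folr1, a folate receptor, differed by -0.73 (adjusted p = 0.346) and Btn1a1, a protein of the milk fat globule, by -0.74 (adjusted p = 0.352).

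In the other 4 lists no gene passed in the mean inhibitor difference or in either time change. Of all named genes 0% passed in the first, 1.01% in the control change and 8.37% in the anti-miR-135b change. Of 19 partners of Trps1 and GATA factors in the NuRD and CoREST corepressors, 12 lay above the filter. From 24 to 72 h under anti-miR-135b Rbbp7, a histone-binding subunit, differed by -1.50 (SE 0.48, adjusted p = 0.0621) and Kdm1a, a histone demethylase, by -0.69 (SE 0.24, adjusted p = 0.0812). Gatad2b, a NuRD subunit, had the smallest p of that list in the mean inhibitor difference, -0.54 (SE 0.18, adjusted p = 0.465). Of 19 oestrogen receptor partners and targets 11 lay above the filter, and Rara, a retinoic acid receptor, had a mean inhibitor difference of 0.60 (SE 0.14, adjusted p = 0.251). Of 19 basal and myoepithelial genes 7 did, with Itga6, an integrin subunit, at -0.65 (SE 0.21, adjusted p = 0.434). Of 10 luminal progenitor and surface markers 7 did, with Cd14 at 0.25 (SE 0.37, adjusted p = 0.923). The list medians of the mean inhibitor difference ran from -0.07 to 0.07, beside -0.00 over all genes.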

How the data were processed

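RNA of 16 samples was measured on Illumina mouse BeadChips. The deposited table holds the authors' non-normalized bead-averaged intensity per probe, made with GenomeStudio per the submitters' processing notes (version not given in the sources used here). A second deposited table gives the authors' log2 values for the same arrays (column medians 8.24 to 8.26, Spearman's rho with the own array 0.999 or more), by a normalization not given in the sources used here, and was used only as an alternative. Its scale was read from the values. Gene names came from the platform annotation, which gives 1 symbol for 23978 probes, several for 0 and none for 1719.

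Intensities were background-corrected (limma 3.58.1 in R 4.3.3, normexp, saddle, offset 50) and quantile normalized on the log2 scale. Probes with a mean above the median of all probes were kept (12848), and no probes were averaged. The means of the 6 groups were fitted together with lmFit and eBayes (10 residual and 7.76 prior degrees of freedom). P-values are two-sided and adjusted by Benjamini-Hochberg over all kept probes of a contrast. The number of arrays limits the precision. The fit and its calls were tested on simulated normal values. Background correction, normalization and the filter were not part of that test.

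The members and lists were chosen with earlier results of these data known. Named were all member probes above the filter, from each list up to 3 called genes per direction and time change, or 2 by smallest p where none was called, 2 by smallest p for the mean inhibitor difference, and the 5 genes most like Trps1 and 3 most like Elf3. Not every gene the rule allows is printed. Alternatives were no background correction, offset 16, median scaling, the authors' table, no filter, a filter at the 60th percentile, array weights, a fit of 1 chip and leaving out each sample. Those of the list genes were added after seeing the data.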

Additional observations from a re-analysis of the deposited data

How the results depend on the processing

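No paired analysis was possible because the arms and times share no replicate numbers in the labels. Of the 69 values of main counts and of the mean Trps1 difference under a setting other than a left-out sample, 60 stayed within 1.5 times the reported count or within the replicate spread. Many of these values are member counts that were 0 in the main fit, in contrasts where few or no probes passed. Such counts had little room to move, so the 60 is no measure of robustness. Median scaling gave 1267 calls of all probes from 24 to 48 h in the control (1243 higher and 24 lower, against 63 and 56) and 377 from 24 to 72 h under anti-miR-135b, with 0 members. Array weights gave 352 and 2178 calls, 4 members from 24 to 72 h and 1 member in the mean inhibitor difference, which is Trps1, chosen for that difference. That fit stopped before its tolerance and gave control sample 5 a weight of 7.63, against at most 2.08 elsewhere. A fit of 1 chip gave 31 calls in the control change, where fewer samples enter, and no filter left 1 member, the brightest Elf3 probe.

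Leaving out 1 sample at a time gave 17 to 123 calls of all probes in the control change (17 without sample 3, 23 without 2, 33 without 5 and 78 without 6) and 23 to 690 in the anti-miR-135b change. Members called ran from 0 to 2 in the latter and stayed 0 in the other contrasts. The mean Trps1 difference ran from -0.99 to -0.82, and under the other settings from -1.09 with median scaling to -0.73 in the authors' deposited table.

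Among the time changes of members, signs turned only for those that passed no test, and the cause was not tested. With median scaling the control changes were 0.28 for Trps1, 0.66, 0.11 and 0.032 for the Elf5 probes and 0.24 for the second Elf3 probe. Array weights gave 0.068 for the brightest Elf5 probe and -0.024 and -0.085 for the Stat5a probes, and the authors' table -0.023 for the dimmer Stat5a probe. With samples left out the control change ran from -0.069 to 0.25 for Gata3, -0.27 to 0.16 for the brightest Elf5 probe, -0.29 to 0.20 for the third Elf3 probe, and -0.31 to 0.63 and -0.044 to 0.062 for the Stat5a probes. The anti-miR-135b change ran from -0.16 to 0.058 for the second Elf5 probe and from -0.082 to 0.67 for Cited1. Median scaling also shifted the median of all probes at 48 h to -0.27, and the 48 h differences were then -0.82 for Gata3, -0.74 and -0.49 for the brighter Elf5 probes, -0.40 for the brightest Elf3 probe and 0.018 for the second. At 72 h they were 0.29 for Gata3 and -0.034 and 0.30 for the brighter Elf5 probes. Array weights gave 0.046 and 0.29 for the Stat5a probes at 48 h. Signal over background limits Foxa1, the dimmer Stat5a probe and the third Elf3 probe, which lay above the receptor gauge on 8, 6 and 8 arrays.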
